A study of Mus musculus with 28 samples.

Results

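Sh3pxd2a, Dst, Wtip, Cdc42ep1, Fmn1, Enah and Arhgef11 are 7 of the 30608 genes in the deposited table. They were chosen as genes of the cytoskeleton, adhesion and cell protrusion whose transcripts were low in untreated CTLL2 cells and higher in cells given melanoma exosomes, so the difference between treated and untreated libraries is described here and not tested. CTLL2 is a mouse cytotoxic T-cell line that needs interleukin-2, B16F0 is a mouse melanoma line, and exosomes are small vesicles that cells release. The untreated groups were taken at the change to fresh medium (0 h, n = 4) and 0.5, 2, 4 or 8 h later (n = 3 per time). The treated groups received the fresh medium with B16F0 exosomes at 0.2 mg/ml and were taken at the same 4 later times (n = 3 per time). The labels give the strain C57BL/6 for the libraries, say that the exosomes were suspended in PBS and the untreated cells unstimulated, and place 9 libraries, 1 per group, in set 1 and 19 in set 2, which they also call batches.

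These genes act where the actin cytoskeleton meets the membrane and the matrix. Tks adaptors assemble invadopodia, the matrix-degrading protrusions of invasive cells, and plakins tie cytoskeletal filaments to adhesion sites. LIM-domain proteins shuttle between adhesions and the nucleus, Borg proteins link Cdc42 to septins, formins and Ena/VASP proteins lengthen actin filaments, and guanine nucleotide exchange factors of the RGS class switch on RhoA. Melanoma cells invade with this machinery, whereas T cells build their immune synapse and crawl with other members of the same families.

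The 28 libraries held 6072984 to 24085812 recovered reads each, and values are normalized counts, the reads over a size factor of the library. A count of 0 allows up to 3 reads, which is 1.88 to 7.47 normalized counts depending on the library, and this limit covers counting error only. The smallest library, exosome 0.5 h replicate 1, has the highest limit. The T-cell identity of the libraries was checked on 16 markers, all of which were measured in every library: Cd3e ranged from 2437 to 4047 normalized counts and Gzmb from 30625 to 54827. In 8 libraries, 3 untreated and 5 treated, the skeletal muscle actin Acta1 was above 50 normalized counts, and 2 libraries (untreated 4 h replicate 1 and treated 8 h replicate 3) had under 25% of genes at 0. Results that rest on these libraries are given with and without them. Leaving out the 8 libraries with high Acta1 keeps only 1 library each in exosome 0.5 h, exosome 4 h and untreated 8 h.

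The starts of the genes are shown first: the 3 windows that held a match to a motif searched (Wtip, Cdc42ep1, Fmn1), and beside them 2 without a match, of Dst, which was at 0 in 9 of 16 untreated libraries, and of Arhgef11, which untreated cells expressed. RefSeq windows of the 250 bases before an annotated start on GRCm38.p6 were matched for 6 of the 7 genes, 8 windows in all. The windows of Wtip (chr7:34133269-34133518, minus strand), Cdc42ep1 (chr15:78842397-78842646, plus strand), the first start of Fmn1 (chr2:113327486-113327735, plus strand), the first start of Dst (chr1:34011345-34011594, plus strand) and Arhgef11 (chr3:87617309-87617558, plus strand) read as follows, 5′ to 3′ along the gene. Capitals mark GGAATG, the core of the site read by TEAD factors, on either strand, so that CATTCC is a match on the other strand.
Wtip: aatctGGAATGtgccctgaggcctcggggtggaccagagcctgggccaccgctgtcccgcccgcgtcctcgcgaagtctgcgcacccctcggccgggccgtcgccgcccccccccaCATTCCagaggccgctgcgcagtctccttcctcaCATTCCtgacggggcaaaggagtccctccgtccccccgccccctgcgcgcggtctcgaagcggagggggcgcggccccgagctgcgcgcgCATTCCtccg
Cdc42ep1: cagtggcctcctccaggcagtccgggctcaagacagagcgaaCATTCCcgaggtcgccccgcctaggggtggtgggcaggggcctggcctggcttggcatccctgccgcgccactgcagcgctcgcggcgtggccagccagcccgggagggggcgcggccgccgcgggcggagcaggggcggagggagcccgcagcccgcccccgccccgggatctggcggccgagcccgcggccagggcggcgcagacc
Fmn1: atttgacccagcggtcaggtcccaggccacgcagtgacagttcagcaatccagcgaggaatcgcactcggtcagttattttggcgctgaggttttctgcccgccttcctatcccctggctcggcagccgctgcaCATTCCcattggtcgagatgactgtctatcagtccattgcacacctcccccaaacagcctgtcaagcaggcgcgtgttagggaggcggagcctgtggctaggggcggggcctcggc
Dst: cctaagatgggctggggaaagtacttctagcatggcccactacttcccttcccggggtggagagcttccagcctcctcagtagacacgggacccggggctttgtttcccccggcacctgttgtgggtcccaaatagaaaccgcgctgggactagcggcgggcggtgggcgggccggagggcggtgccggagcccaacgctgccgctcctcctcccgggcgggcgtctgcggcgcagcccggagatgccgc
Arhgef11: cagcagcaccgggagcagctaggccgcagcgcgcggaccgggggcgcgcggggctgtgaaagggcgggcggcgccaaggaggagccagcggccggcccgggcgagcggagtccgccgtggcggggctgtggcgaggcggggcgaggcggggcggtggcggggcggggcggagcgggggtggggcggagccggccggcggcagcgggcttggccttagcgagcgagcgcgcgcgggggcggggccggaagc
GGAATG was found 4 times before Wtip, at positions -245, -134, -100 and -10 from the start, once before Cdc42ep1 at -208, and once before the first start of Fmn1 at -116. The other 5 windows, 2 of Dst, 1 of Fmn1, 1 of Enah and the one of Arhgef11, held no match. Over all 32851 windows of this length 12.6% held it. No window of the 7 genes held the E-box CACGTG (6.02% of all windows), the M-box core CATGTG (12.3%), the AP-1 site TGANTCA (6.75%) or a CArG box (1.47%), each searched on both strands. A match is only a match of letters. G and C made up 84.8% of the window of Enah, 83.6% of Arhgef11, 79.2% of Cdc42ep1, 73.6% of Wtip, 68.8% and 45.2% of the starts of Dst and 60.8% and 44.4% of those of Fmn1, against a median of 52.4% over all windows.

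Sh3pxd2a encodes Tks5, the scaffold on which invadopodia assemble (chr19:47260174-47464401 on GRCm38, minus strand). Treated cells held 39.9, 81.2 and 72.9 normalized counts at 0.5 h, 41.4, 29.3 and 45.2 at 2 h, 36.8, 46.4 and 40.5 at 4 h, and 41.8, 42.3 and 35.8 at 8 h. Untreated cells held 4.33, 0, 0 and 0 at 0 h, 2.84, 2.01 and 0.888 at 0.5 h, 0, 0.701 and 0 at 2 h, 6.03, 0 and 1.95 at 4 h, and 1.8, 4.04 and 0.892 at 8 h. Every one of the 12 treated libraries stood above all 16 untreated ones. In reads this was 573 treated against 24 at the matched untreated times, a ratio of 25.4 after depth (exact 95% interval 16.9 to 39.9). Reads were pooled over libraries for this interval and for those of the other genes below. They cover counting error only and leave out the spread between libraries, so they are too narrow for the effect of treatment. The highest untreated value, 6.03, came from untreated 4 h replicate 1, one of the libraries with few genes at 0.

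Dst encodes dystonin, a plakin that anchors intermediate filaments and microtubules at hemidesmosomes and has long muscle and neuronal forms (chr1:33908225-34308661, plus strand). Treated cells held 27.4, 50.8 and 60.7 normalized counts at 0.5 h, 23.6, 22.9 and 34.8 at 2 h, 46.6, 23.8 and 34.9 at 4 h, and 23.0, 45.0 and 34.0 at 8 h. All 7 untreated libraries at 0 h and 0.5 h held 0, and the later ones held 0, 4.21 and 0.858 at 2 h, 13.8, 1.70 and 1.95 at 4 h, and 9.0, 9.71 and 0 at 8 h. The treated libraries again stood above every untreated one, with 441 reads against 49 and a ratio of 9.57 (95% interval 7.11 to 13.1). The untreated values of Dst were uneven, 0 in 9 of 16 libraries and highest at 4 h and 8 h. The 3 untreated libraries with muscle transcripts held 4.21 to 9.71, and the other 13 had a median of 0 and ranged up to the 13.8 of untreated 4 h replicate 1. Those 3 were taken at 2 h or 8 h, whereas the other 13 include all 7 at 0 h and 0.5 h. Time therefore also differs between these libraries. Among treated libraries the 5 with muscle transcripts held 22.9 to 60.7 and the 7 without 23.0 to 50.8. The part of muscle RNA in the Dst values was not tested. Without the muscle libraries and those with few genes at 0, the mean exosome effect on log2(normalized count + 1) was 4.65, against 3.71 with all libraries. That fit left out the highest untreated values of Dst, 13.8, 9.71, 9.0 and 4.21. It kept only replicate 2 of exosome 0.5 h, replicate 3 of exosome 4 h and replicate 3 of untreated 8 h, where Dst was at 0.

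**Figure D1:**
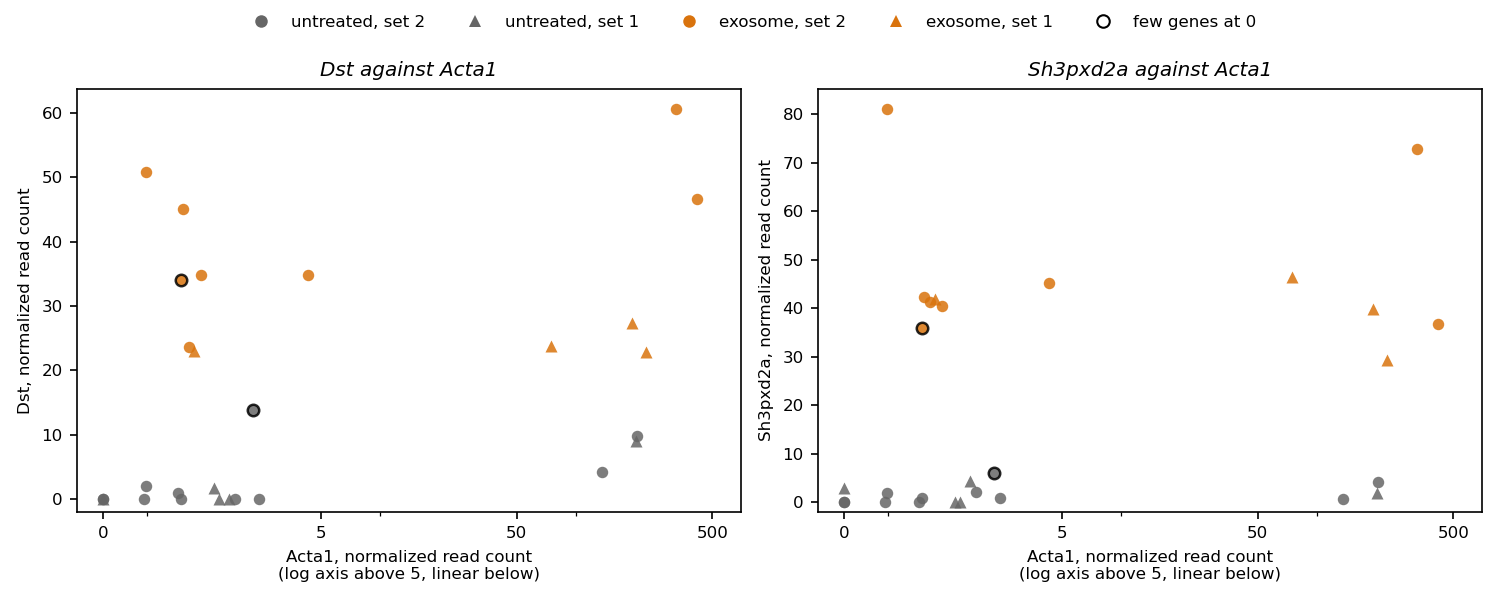
Dst (left) and Sh3pxd2a (right) in normalized read counts against Acta1, the skeletal muscle actin, in each of the 28 libraries; colour gives treatment, shape the set, and a black outline the 2 libraries with few genes at 0. The 3 untreated libraries at high Acta1, taken at 2 h or 8 h, hold 4.21 to 9.71 of Dst, whereas Sh3pxd2a stays at or below 4.04 in them.

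Wtip encodes an Ajuba-family LIM protein of cell junctions (chr7:34109543-34133268, minus strand). It held 7.47, 13.7 and 23.2 normalized counts in treated cells at 0.5 h, 8.86, 10.01 and 17 at 2 h, 12.6, 10.7 and 12.4 at 4 h, and 7.32, 23.0 and 15.2 at 8 h. Only 4 reads were seen in the 16 untreated libraries, and 13 of these held none. The ratio of 170 treated reads to 4 was 45.2 with a wide interval of 17.3 to 168, since so few untreated reads stood behind it.

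Cdc42ep1 encodes Borg5, an effector of the GTPase Cdc42 (chr15:78842624-78850897, plus strand). No read fell on it in any of the 16 untreated libraries. Treated cells held 7.47, 15.6 and 22.1 normalized counts at 0.5 h, 6.89, 2.14 and 5.65 at 2 h, 12.6, 5.02 and 13.5 at 4 h, and 6.27, 12 and 12.5 at 8 h, 122 reads in all. Set against an assumed 3 reads over the 12 matched untreated libraries, the ratio was 43.2 after depth. From the 0 reads seen, the exact 95% lower limit was 34.6, for counting error only. Several single treated libraries rested on few reads, 3 each in exosome 0.5 h replicate 1 and exosome 2 h replicate 2, so the order of the times was not resolved. On the far strand Lgals2 overlaps 1.48% of its exons.

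Fmn1 encodes formin 1, which nucleates unbranched actin filaments and acts at adherens junctions (chr2:113327736-113716767, plus strand). Treated cells held 0, 8.80 and 19.9 normalized counts at 0.5 h, 7.88, 7.86 and 9.42 at 2 h, 10.8, 13.2 and 5.62 at 4 h, and 6.27, 8.27 and 11.6 at 8 h. Untreated libraries ranged from 0 to 5.17 with a median of 1.36 (n = 16). The 0 came from exosome 0.5 h replicate 1, where it allows up to 7.47, and the other 11 treated libraries stood above every untreated one. Over reads the ratio was 4.63 (122 against 28, 95% interval 3.05 to 7.26).

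Enah encodes Mena, the Ena/VASP protein that protects growing actin ends and is known from invasive tumour cells (chr1:181896384-182019990, minus strand). Its untreated level was not low in set 2. There, untreated libraries ranged from 7.28 to 30.9 normalized counts (median 11.8, n = 11) and treated ones from 22.4 to 38.4 (median 30.7, n = 8). In set 1 untreated libraries ranged from 2.88 to 6.63 (median 5.40, n = 5), and the 4 treated ones held 4.98, 11.4, 8.78 and 19.9 at 0.5, 2, 4 and 8 h. With the sets pooled, treated and untreated libraries overlapped at 0.5, 2 and 4 h and were apart at 8 h, where treated cells held 19.9, 30.3 and 22.4 against 5.40, 7.28 and 10.7. Within a set they did not overlap at any time. In set 1 the 0.5 h values rest on 2 treated and 4 untreated reads, so the size factors set their order. The treated library of that set stood at 4.98 against 3.78 at 0.5 h, 11.4 against 6.63 at 2 h and 8.78 against 5.95 at 4 h. In set 2 the lower treated library stood at 26.5, 31.1 and 29.2 at these times against a higher untreated one of 18.1, 30.9 and 26.7, so the gap at 2 h was small. The read ratio over all times was 1.61 (95% interval 1.34 to 1.93).

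Arhgef11 encodes PDZ-RhoGEF, which couples G-protein and plexin receptors to RhoA (chr3:87617559-87738034, plus strand). It goes against the description under which it was chosen, because untreated T cells expressed it. Untreated libraries held 24.5, 18.9, 14.8 and 13.8 normalized counts at 0 h, 17, 12.1 and 17.8 at 0.5 h, 13.3, 10.52 and 16.3 at 2 h, 14.6, 11 and 8.77 at 4 h, and 9.0, 2.43 and 3.57 at 8 h. Treated libraries ranged from 13.2 to 23.2 (median 14.6, n = 12), and none stood above every untreated library. At 8 h the treated values of 18.8, 17.5 and 13.4 lay above all 3 untreated ones, so the gap at that time came with the lower untreated level. Lrrc71 on the opposite strand overlaps 12.5% of its exons, and, as no strand setting is given in the sources used here, reads of the pair cannot be told apart there; Lrrc71 itself ranged from 4.46 to 28.7 over all libraries.

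**Figure D2:**
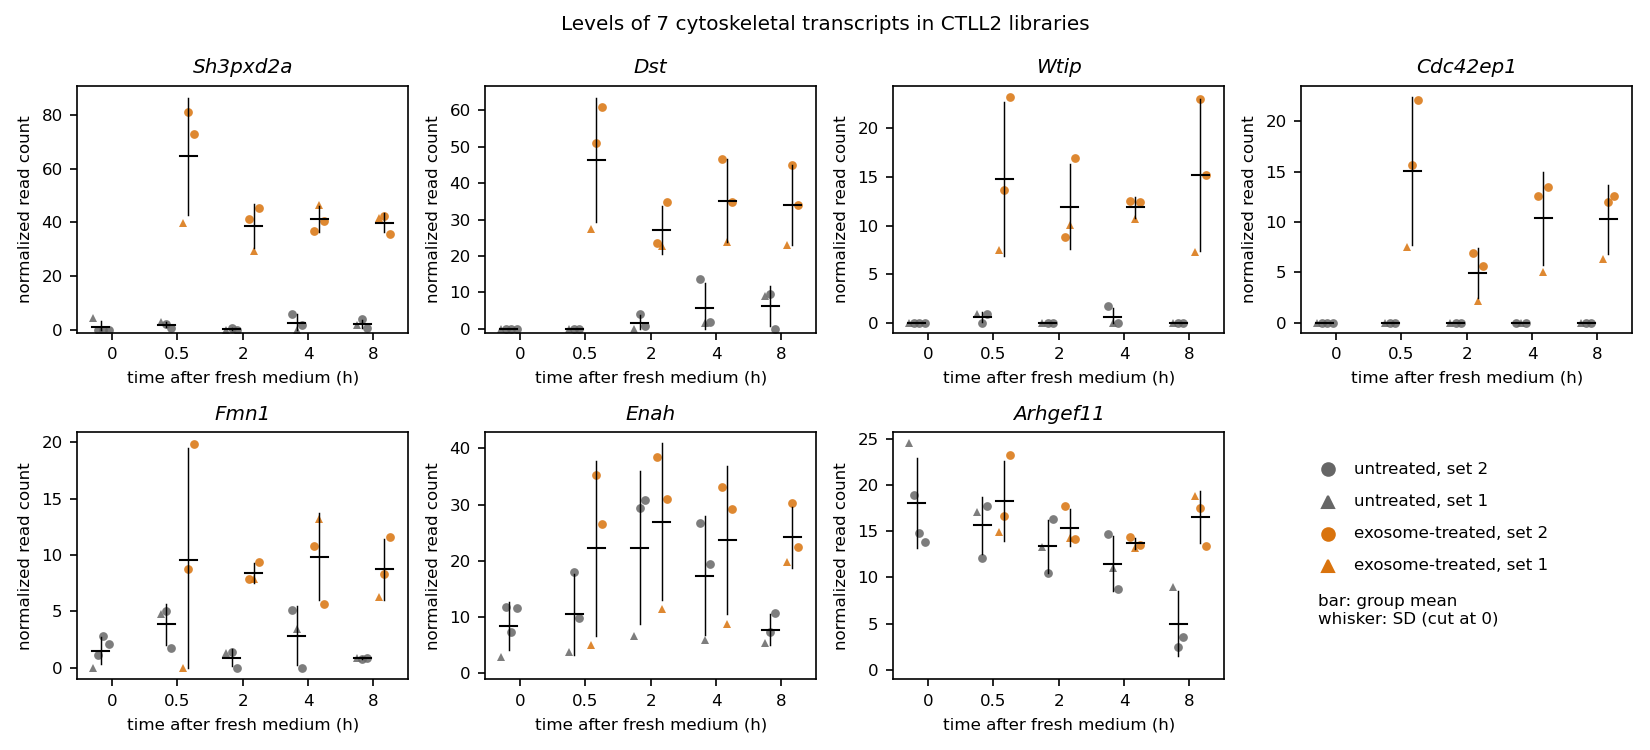
Normalized read counts of the 7 transcripts in each library by hours after fresh medium; grey marks untreated and orange exosome-treated cells, triangles set 1 and circles set 2, with bars for group means and whiskers for SD. Treated libraries of Sh3pxd2a, Dst, Wtip and Cdc42ep1 lie above every untreated one, and the untreated level of Arhgef11 is lowest at 8 h. Enah overlaps until 8 h between the sets but not within a set, where set 1 at 0.5 h rests on 2 treated and 4 untreated reads.

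Side by side, the 7 genes ran from Cdc42ep1, with no read in any untreated library, to Arhgef11, with reads in every one. All 12 treated libraries exceeded all 16 untreated ones for 4 of the 7, which 28 of the 14828 genes tested did (0.189%). At single times the 3 treated libraries all exceeded the 3 untreated ones for 4 of the 7 genes at 0.5 h (3.36% of genes tested), 5 at 2 h (1.92%), 5 at 4 h (3.11%) and 7 at 8 h (5.37%). Within each set they did so at every time for 5 of the 7, the 4 above and Enah (0.29% of genes tested), with 1 untreated and 1 treated library per time in set 1. For Enah at 0.5 h in set 1 this rests on 2 treated and 4 untreated reads. The mean of the 4 exosome effects on the log2(normalized count + 1) scale was 4.31 ± 0.30 for Sh3pxd2a, 3.71 ± 0.34 for Dst, 3.49 ± 0.24 for Wtip and 3.3 ± 0.22 for Cdc42ep1 (limma standard errors). It was 1.72 ± 0.38 for Fmn1, 0.81 ± 0.17 for Enah and 0.59 ± 0.15 for Arhgef11. In limma, 6 of the 7 passed an adjusted p of 0.05, as did 68 of all genes (0.459%), all of them higher in treated cells. Since the genes were picked on this difference, the count is no evidence for it. The first 4 passed in all 39 alternative fits, while Fmn1 did not pass in 20 of the 37 that tested it, Enah in 7 of 39 and Arhgef11 in 38 of 39. Without the muscle libraries the effect of Enah was 0.97 ± 0.23, and without both doubtful kinds 1.07 ± 0.23, and it passed in neither; without those with few genes at 0 it was 0.92 ± 0.17 and passed. Fmn1 stood at 1.8 ± 0.41 without the latter and did not pass, and without the muscle libraries it was too low to test. Sh3pxd2a, Dst, Wtip, Cdc42ep1 and Fmn1 entered the test only through their treated libraries, since a gene needed 10 normalized counts in at least 3 libraries.

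Whether the treated level moved with time was not used in choosing the genes and was tested. Between 0.5 h and 8 h of exosome treatment none of the 7 passed (adjusted p 0.51 to 0.982, limma), against 345 of 14828 genes (2.33%), 56 higher and 289 lower at 8 h. The change from 0.5 h to 8 h was -0.62 ± 0.60 for Sh3pxd2a, -0.41 ± 0.68 for Dst, 0.03 ± 0.47 for Wtip and -0.45 ± 0.45 for Cdc42ep1 on the log2 scale. Fmn1 stood at 0.69 ± 0.77, Enah at 0.45 ± 0.34 and Arhgef11 at -0.12 ± 0.31. With these errors and this adjustment, changes of about 1 log2 unit may have gone undetected in any of the 7. Changes well above 1 log2 unit may have been missed where errors were larger, most of all in Sh3pxd2a, Dst and Fmn1. Sh3pxd2a had its highest mean at 0.5 h, 64.6 ± 21.8 (SD, n = 3), against 38.6 ± 8.29 at 2 h, and the ranges of neighbouring times overlapped.

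The gap between treated and untreated cells was also compared between the 4 times. No gene of the 14828 passed the F test in limma (0%), 1873 had an unadjusted p under 0.05, edgeR called 0 and DESeq2 called 5. Arhgef11 had an unadjusted p of 0.00407 (adjusted 0.366): its effect was 0.21, 0.20 and 0.26 at 0.5, 2 and 4 h and 1.69 ± 0.31 at 8 h. Dst had an unadjusted p of 0.0331 (adjusted 0.377), its effect running from 5.49 ± 0.68 at 0.5 h to 2.83 ± 0.68 at 8 h. Without untreated 8 h replicate 3, where Dst held 0, it passed with an adjusted p of 0.0207, and 1348 genes passed in all.

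**Figure D3:**
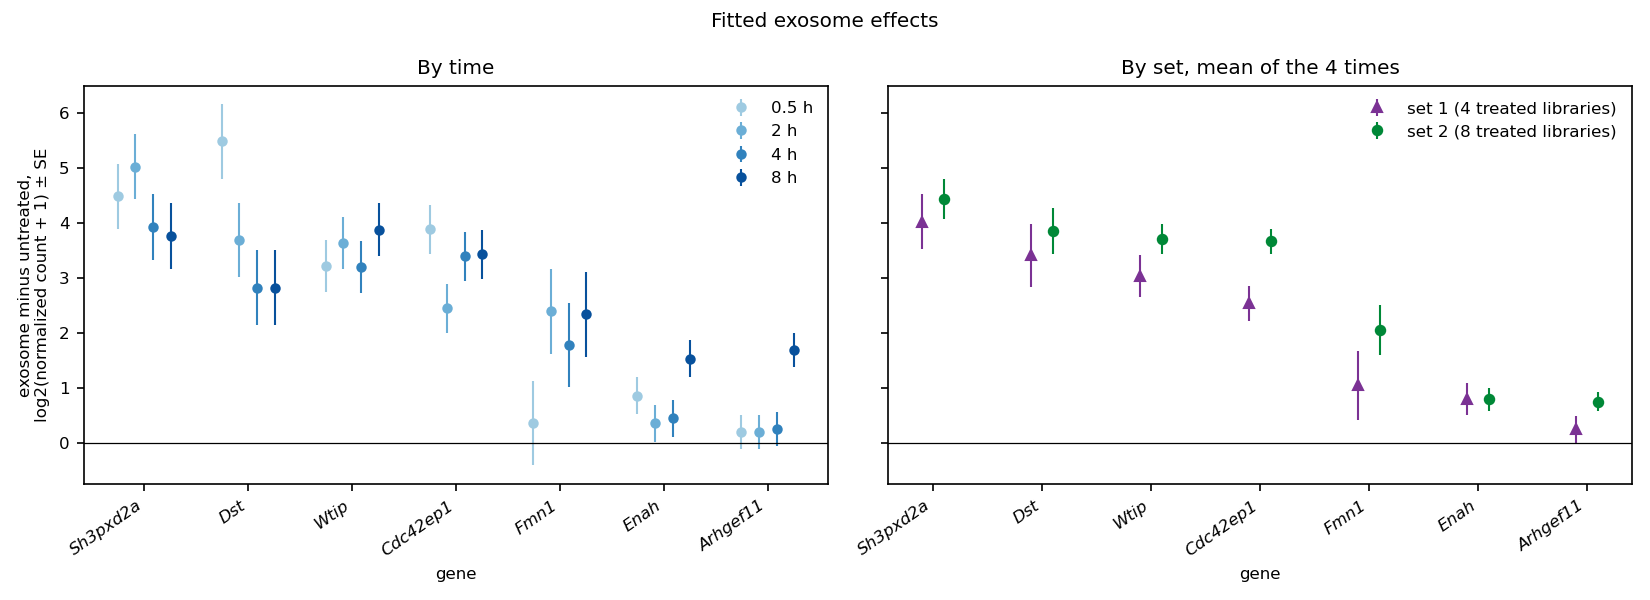
Exosome-treated minus untreated cells on the log2(normalized count + 1) scale with limma standard errors, for each gene at each of the 4 times (left) and as the mean of the times within each set (right). Effects lie above 0 at each time for Sh3pxd2a, Dst, Wtip and Cdc42ep1, and Arhgef11 stands near 0 until 8 h.

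Untreated cells changed on their own after the medium change, and 3 of the 7 genes were among the 3200 that passed the F test over the 5 untreated times (21.6% of genes). Arhgef11 fell: its untreated mean was 18.0 ± 4.86 (SD, n = 4) at 0 h and 5.0 ± 3.51 (n = 3) at 8 h, a log2 change of -1.8 ± 0.29 (adjusted p of the F test 0.0014, limma). Enah changed (adjusted p 0.0155), with 1.32 ± 0.32 at 2 h and 0.12 ± 0.32 at 8 h relative to 0 h, so that it was highest in between. This call was lost without the set term (adjusted p 0.665) and without the muscle libraries (0.106). Dst changed as well (adjusted p 0.0155), from 0 reads at 0 h to log2 differences of 2.33 ± 0.64 at 4 h and 2.28 ± 0.64 at 8 h. It passed without the muscle libraries (0.0329) and without those with few genes at 0 (0.0357), and did not pass without both kinds (0.191), without untreated 8 h replicate 2 alone (0.0565), without the set term (0.0755) or with a pseudocount of 5 (0.0525). Sh3pxd2a did not pass (adjusted p 0.211) but did so in set 2 alone (0.0104) and without untreated 0 h replicate 1 (0.0222), the only 0 h library with reads of it.

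The mean exosome effect had the same direction in both sets for each gene. The genes were chosen on this difference over the libraries of both sets, so this is a description. The mean exosome effect in set 1 and set 2 was 4.03 and 4.45 for Sh3pxd2a, 3.42 and 3.86 for Dst, 3.04 and 3.71 for Wtip and 2.55 and 3.67 for Cdc42ep1 on the log2 scale. It was 1.06 ± 0.63 and 2.05 ± 0.45 for Fmn1, 0.81 ± 0.29 and 0.80 ± 0.21 for Enah, and 0.25 ± 0.25 and 0.76 ± 0.18 for Arhgef11 (limma standard errors). In set 1 at 0.5 h, Fmn1 held 0 in the treated library and 4.73 in the untreated one. None of the 7 passed the test of the difference between sets, which 5 genes did (0.0337%). The one nearest was Cdc42ep1, with a difference of 1.12 ± 0.38 (unadjusted p 0.00735, adjusted p 0.955, limma): its treated libraries ranged from 2.14 to 7.47 normalized counts in set 1 (n = 4) and from 5.65 to 22.1 in set 2 (n = 8). Summed over the 7 genes, treated libraries held 97.9 to 123 normalized counts in set 1 and 145 to 248 in set 2, ranges that did not overlap, and untreated ones 21.2 to 31.7 and 16.1 to 68. Muscle transcripts were present in 3 of the 4 treated libraries of set 1 and 2 of the 8 of set 2.

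Untreated libraries of the sets were compared too. The choice of genes used the low level of these libraries, though not the difference between sets. Enah was higher in set 2 by 1.51 ± 0.23 (adjusted p 9.57e-06, limma), in a comparison that 6746 genes passed (45.5%, with 22.6% higher in set 2). The other 6 did not pass. For Cdc42ep1, with 0 reads over the 16 untreated libraries, and Wtip, with 4, this was fixed by the low level. Arhgef11 came closest, at -0.43 ± 0.20 (adjusted p 0.0763), and passed when untreated 2 h replicate 3, 4 h replicate 1 or 4 h replicate 2 was left out. For Enah this set difference of 1.51 stands beside a largest untreated time difference of 1.32.

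Per kb of exon, the treated levels of the 7 genes were low and ran from 0.59 to 5.64 normalized counts. Wtip stood highest at 5.64 ± 2.25 normalized counts per kb (SD, n = 12), then Sh3pxd2a at 3.98 ± 1.31, Cdc42ep1 at 3.96 ± 2.18 and Arhgef11 at 2.01 ± 0.37. Enah (1.13 ± 0.51), Dst (0.87 ± 0.31) and Fmn1 (0.59 ± 0.31) followed, and neighbours in this order differed by less than the larger of their SDs, except Arhgef11 and Enah; no test was made. The high counts of Dst come with an exon length of 41155 bases, longer than that of 99.96% of the genes tested. Enah (21452 bases), Fmn1 (15397) and Sh3pxd2a (11593) are long too, against a median of 3633, whereas Wtip (2383) and Cdc42ep1 (2560) lie below it.

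Outside the Tks adaptors, each family held a relative that stood far above these levels in untreated T cells and did not pass. The formin of blood cells, Fmnl1, held 4159 ± 358 normalized counts per kb in treated and 4013 ± 424 in untreated cells, and Diaph1, the mDia1 formin, 948 ± 56.2 and 926 ± 80.5. Vasp, an Ena/VASP protein of leukocytes and platelets, held 2950 ± 198 and 2912 ± 250 per kb. Among plakins, Plec held 529 ± 92.9 and 494 ± 111 and Macf1 227 ± 39.5 and 221 ± 49.7. Among LIM proteins, Zyx held 651 ± 94.4 and 617 ± 108, and Limd1 294 ± 15.7 and 288 ± 19.4. Cdc42ep3 was the abundant Borg gene at 403 ± 52.4 and 401 ± 68.4, and of the RGS exchange factors Arhgef1 held 1116 ± 103 and 1088 ± 121 and Arhgef12 447 ± 76.7 and 433 ± 86.5. The mean exosome effects of these 10 relatives lay between 0.01 (Cdc42ep3) and 0.12 (Plec) on the log2 scale.

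**Figure D4:**
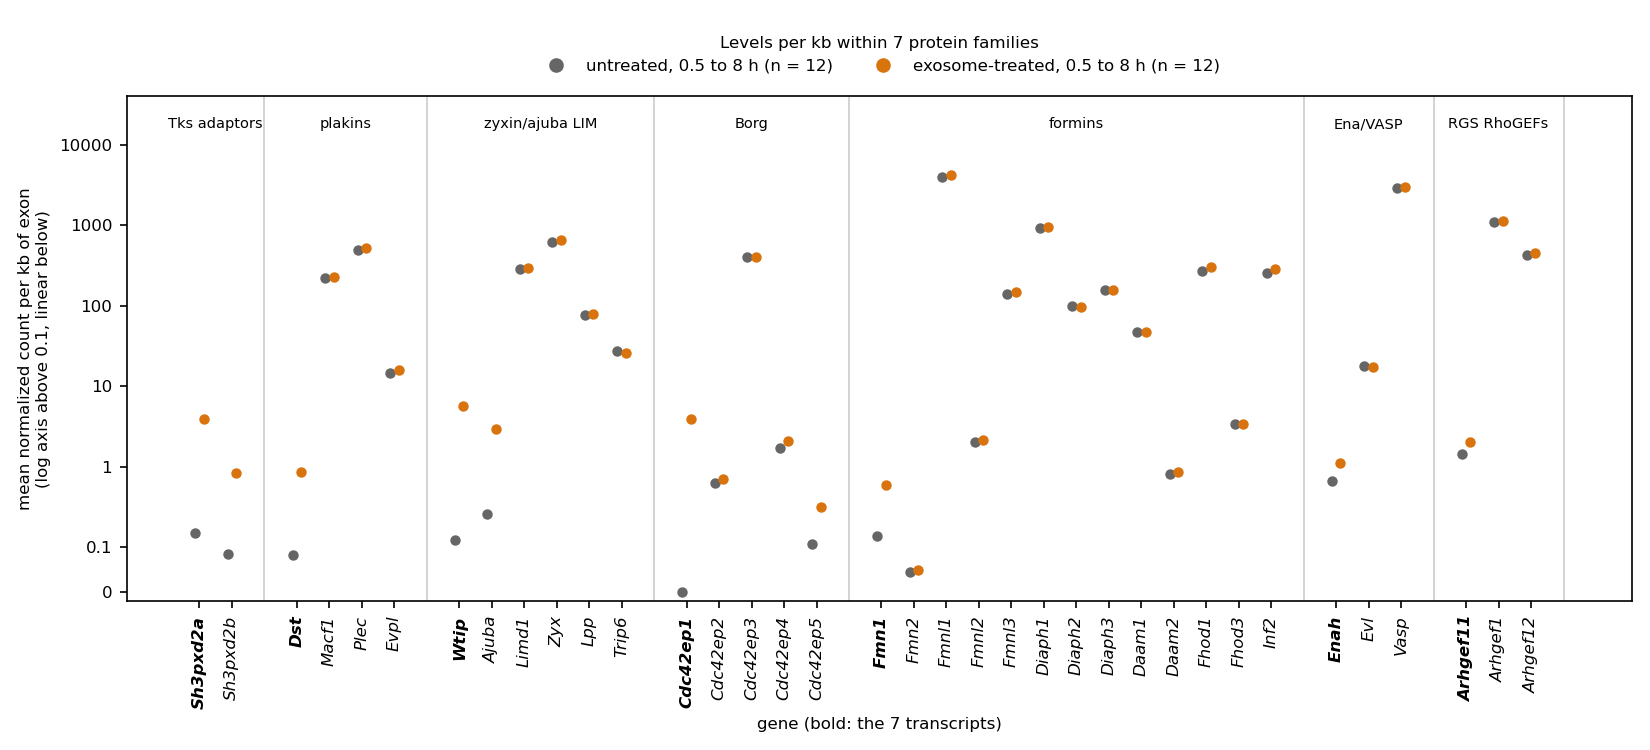
Mean normalized counts per kb of exon in 12 untreated (grey) and 12 exosome-treated (orange) libraries from 0.5 to 8 h, for the 7 transcripts (bold) and relatives of the same protein families, on an axis that is logarithmic above 0.1 and linear below. The abundant relatives show overlapping points, whereas Sh3pxd2a, Dst, Wtip, Cdc42ep1 and Fmn1 lie well below them and apart between treatments. On this axis an equal gain in counts would not be visible in the abundant relatives.

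A few relatives outside the 7 genes passed the test of the mean exosome effect, all of them higher. Sh3pxd2b, the gene of Tks4 and the only other Tks adaptor, held 8.12 ± 5.18 normalized counts in treated and 0.837 ± 1.97 in matched untreated libraries (SD, n = 12 each), a log2 difference of 2.34 ± 0.36 (adjusted p 0.000264, limma). In 7 of 12 treated libraries it lay above every untreated one, and its highest untreated value, 6.89, was again in untreated 4 h replicate 1. Ajuba, the LIM protein most like Wtip, held 10.7 ± 6.28 against 0.946 ± 0.883, a difference of 2.43 ± 0.38 (adjusted p 0.000469), and only 1 of the 12 treated libraries fell within the untreated range. Plxnb1, a semaphorin receptor that binds Arhgef11, held 8.10 ± 6.06 against 1.18 ± 1.36, a difference of 1.88 ± 0.43 (adjusted p 0.0476), and 7 treated libraries exceeded the untreated range. Sh3pxd2b and Ajuba passed in all alternatives that tested them (38 and 39), and Plxnb1 did not pass in 24 of 39. All 3 entered the test only through their treated libraries, so that they passed is a description. In exosome 0.5 h replicate 1, the library of least depth, all 3 were at 0.

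The other genes of these pathways are set beside the 0.459% of all genes that passed. Those that passed (Sh3pxd2b, Ajuba and Plxnb1) entered the test only through their treated libraries, so these counts are a description. Of 10 other invadopodium and podosome genes tested, 1 passed (Sh3pxd2b) and the median log2 effect was 0.04, and 9 more, among them Cttn and Mmp14, were too low to test. The counts were 1 of 6 for zyxin and ajuba LIM proteins (Ajuba, median 0.05) and 1 of 14 for RGS exchange factors and the RhoA pathway (Plxnb1, median 0.03). None passed of 3 plakins (median 0.12), 10 Borg and septin genes (0.0016), 11 formins (0.04) or 7 Ena/VASP genes and partners (-0.03). None passed either of 21 integrin and focal adhesion genes (0.04), 18 genes of the T-cell actin machinery (0.0035) or 16 T-cell markers (-0.02). The median over all genes tested was -0.00062.

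Markers of other cell types were read in the same libraries. Melanocyte transcripts differed with treatment: 5 of 8 tested of 14 listed passed, all higher in treated cells (Tyrp1, Dct, Mitf, Trpm1 and Mc1r), against 0.459% of all genes. These 5 entered the test only through their treated libraries, so the count is a description, and 6 more, Mlana and Tyr among them, were too low to test. Kit and Gpnmb, which untreated CTLL2 cells also express, dominated the sum of the 14, which ranged from 1190 to 2417 normalized counts in treated and from 1275 to 2227 in untreated libraries. The sum of the other 12 ranged from 78.6 to 192 in treated and from 9.57 to 31.9 in untreated libraries, and Tyrp1, a pigment enzyme, was at 0 in all 16 untreated libraries and between 13.2 and 76.3 in treated ones. The exosome effect on Tyrp1 was 1.60 ± 0.32 larger in set 2 and did not pass (adjusted p 0.0941, limma). As the libraries hold bulk RNA, transcripts brought in with the vesicles and transcripts made by the T cells cannot be told apart, and neither can fewer cells with a transcript and less of it per cell.

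Acta1 was above 50 normalized counts in 5 of 12 treated and 3 of 16 untreated libraries, and whether this went with treatment was not tested. Muscle markers varied widely between libraries, and a difference with treatment was not resolved. None of 14 tested of 15 listed passed (median log2 effect 0.77), and their sum ranged from 1024 to 4812 in treated and from 909 to 3158 in untreated libraries, with Ckm, Eno3 and Mylpf expressed in every library. Fibroblast markers (0 of 5 tested of 10, median 0.41) summed to 78.8 to 203 in treated and 70.2 to 160 in untreated libraries. Macrophage markers (0 of 2 tested of 9, median -0.07) summed to 506 to 645 and 542 to 728. Epithelial markers (0 of 1 tested of 6, effect -0.15) summed to 0 to 22.4 and 2.43 to 28.4, with Epcam, Krt5 and Krt14 at a median of 0 in treated and untreated libraries. The part of each of these in the levels of the 7 genes was not tested.

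Within the 12 treated libraries, the 7 genes did not all move together. Over their 21 pairs Spearman's rho had a median of 0.364. Dst and Cdc42ep1 were most alike (rho 0.853, Pearson's r 0.901), then Dst and Wtip (rho 0.776), and Fmn1 and Arhgef11 least (rho -0.14). Libraries of unlike depth and set enter each of these values, and counts were low, so they are given as a description only.

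Over all 28 libraries, the genes whose levels followed the mean log2 level of the 7 most closely were Rbfox2 (rho 0.926), Fkbp9 (0.922), Sox11 (0.908), Ryk (0.905), Ctdspl (0.900), Trpm1 (0.900), Tmem56 (0.900) and Lbh (0.897). Trpm1 is a melanocyte channel and Ryk a receptor for Wnt proteins. These points share treatment, set and depth. Within the 12 treated libraries the nearest gene of each was instead Ripk2 for Sh3pxd2a (0.853), Rtkn for Dst (0.958), Slc39a1-ps for Wtip (0.951), Stk35 for Cdc42ep1 (0.937), Smarcal1 for Fmn1 (0.888), Ss18 for Enah (0.937) and Ccdc62 for Arhgef11 (0.881). These are the highest of 11622 genes screened over 12 points, so they are the top of a long selection over few points.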

How the data were processed

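RNA from 28 CTLL2 libraries was sequenced, with CASAVA 1.8.4, STAR 2.4.2, featureCounts 1.5.0, DESeq2, R 3.3.2 and the build GRCm38.p2 named in the submitters' processing notes. Neither the strand setting nor the rule for multi-mapped reads is given in the sources used here. The deposited values are a normalized signal: reads per gene over a library-wide size factor set by the authors (0.401 to 1.59). Every value gave a whole read within 0.01, and the recovered depth was 6072984 to 24085812 reads. Within groups, pairs of libraries differed by 1.32 to 133 times counting noise (chi-square per degree of freedom), and none was treated as 1 library. The series design calls the replicates biological.

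Genes were named and placed with GENCODE M21 on GRCm38. Log2(normalized count + 1) was fitted with limma 3.58.1 (R 4.3.3, with a trend of variance on mean), using 9 group means and a set term, for the 14828 genes that reached 10 in at least 3 libraries; the Benjamini-Hochberg adjustment covered all of these. edgeR 4.0.16 and DESeq2 1.42.0 on recovered reads, other pseudocounts, no filter, no set term, set 2 alone, a replicate block and leaving out each library were alternatives; leaving out the muscle libraries, those with few genes at 0, or both was added after seeing the data. The code was tested on simulated data. The members and gene lists were chosen with earlier results of these data known. Named were the 7 members, relatives of the same protein families, called genes of each list, and the genes of highest Spearman correlation; Tyrp1 and the genes named beside marker lists were chosen after their values were seen. Same-numbered libraries of the treated and untreated groups do not share a source by the labels.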

Additional observations from a re-analysis of the deposited data

Results flagged for a closer look

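Sh3pxd2a held 4.33 normalized counts in untreated 0 h replicate 1 and 0 in the other 3 untreated 0 h libraries, so that this library stood apart from its group in a Dixon test of the gap over the range. The value rests on 3 reads, and this is the only 0 h library of set 1. Any value above 0 beside 3 values of 0 is marked by this test. The usual rate of about 1 in 20 groups marked by chance therefore does not apply here.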

How the results depend on the processing

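No value that passed, with all libraries or in an alternative, changed sign. Of 31 signed differences, 12 that never passed did, among them treated 8 h against 0.5 h for Fmn1 (0.69, down to -0.60 with 1 library left out and -0.40 in set 2 alone) and Enah (0.45, and -0.22 in set 2 alone). For the mean exosome effect 68 genes passed, and 193 without a filter. For the exosome effect differing between times the count was 0, with DESeq2 5 and in set 2 alone 3. For treated 8 h against 0.5 h it was 345, without the set term 23, with the replicate block 216, in set 2 alone 2037, without muscle libraries 68, without libraries with few genes at 0 78 and without both 22. For the untreated time course it was 3200, without the set term 367, without muscle libraries 719 and without both kinds 414. For the difference between sets it was 5, with a pseudocount of 0.5 1, with a pseudocount of 5 11, without a filter 2, with edgeR 1, with the replicate block 3, without muscle libraries 150, without libraries with few genes at 0 2 and without both 142. The cause of these shifts was not tested.

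Leaving out 1 library gave 54 to 72, 0 to 1348, 68 to 1166, 1095 to 4659, 2 to 5 and, for the untreated set difference, 5693 to 6946 against 6746. The extremes came without untreated 8 h replicate 3 (1348), exosome 8 h replicate 2 (68), exosome 8 h replicate 1 (1166) and untreated 8 h replicate 2 (1095). Beyond 1.5 times, treated 8 h against 0.5 h also moved without exosome 0.5 h replicate 1 (210), 2 (144) or 3 (91), untreated 2 h replicate 1 (542) or exosome 8 h replicate 3 (94), and the untreated time course without untreated 8 h replicate 1 (1540).

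Residuals of same-numbered treated and untreated libraries correlated between -0.25 and 0.276 over 12 pairs, and 3 of these exceeded 0.1. Each correlated best with its own number in 3 of 12. Both libraries were of the same set in 10 of the 12 pairs. With 3 libraries per group, these residuals cannot show whether the numbers share more than the set. With the replicate block the mean effect passed for 61 genes and the untreated time course for 2164, and Fmn1 and Plxnb1 did not pass for the mean effect. With a pseudocount of 5 the mean effect was 2.91 for Sh3pxd2a, 2.38 for Dst, 1.75 for Wtip and 1.51 for Cdc42ep1. Other settings gave larger log2 effects for Wtip and Cdc42ep1. These were 4.28 and 4.21 with a pseudocount of 0.5, 5.56 and 6.34 with edgeR, and 5.39 and 5.72 with DESeq2. Low counts limit Wtip, Cdc42ep1 and Fmn1.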
